A study of Mus musculus with 62 samples.

Results

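The hippocampus of the APP NL-G-F mouse was compared at 12 and at 3 months of age. In this strain the mouse App gene itself carries a humanised amyloid sequence with the Swedish, Iberian and Arctic changes, so amyloid is made from the gene's own promoter, and both ages carry the same alleles. The 6 libraries that entered the comparison, 3 at 12 months and 3 at 3 months, were chosen by genotype, age and long-RNA label out of 62 libraries in all. The series also holds APP mice at 6 months (3 long-RNA libraries) and WT C57BL/6J mice at 3, 6 and 12 months (2, 3 and 3 libraries), short-RNA libraries of the same hippocampi and a cell line. The submitters place 3 months before symptoms with very little plaque, 6 months at the onset of symptoms and plaques, and 12 months at the end of the course. Each mouse gave the hippocampi of both hemispheres as a single pool. The RNA was depleted of ribosomal RNA before sequencing. Zygosity, sex and litter are not in the labels.

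Amyloid plaques are surrounded by microglia, the resident phagocytes of the brain. Around plaques these cells are known to switch on a receptor program that runs through Trem2 and its adaptor Tyrobp, and with it lysosomal proteases, complement and lipid-handling genes. Astrocytes near plaques are known to raise the intermediate filament gene Gfap. Interferon signalling and presentation of antigen by MHC molecules mark further states of microglia in amyloid models.

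The files list 53975 genes in TPM, a share of each library corrected for gene length. A gene was tested if its mean was at least 1 TPM over the 17 mouse hippocampus long-RNA libraries, which left 17840 genes. All levels below are TPM after scaling by median of ratios. All changes are differences of log2(TPM + 1), 12 minus 3 months, with their standard error, and a gene is called at a limma adjusted p below 0.05 over all tested genes. Where a gene was near 0 TPM at 3 months, this scale understates its change, and no fold is given. Such a gene passed the filter through its levels in other groups, so counts among tested genes lean toward rises.

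Some libraries stood apart before any test. Markers of the thalamus, which borders the hippocampus, summed to 501 TPM in 3-month replicate 1, 181 in replicate 2 and 61.3 in replicate 3, against 45.7 to 57.5 at 12 months. Markers of the striatum showed the same order at 3 months, with 261, 90.2 and 65.6 TPM against 43.3 to 56.0. Conversely, 8 markers of hippocampal neurons, among them Neurod6 and Camk2a, summed to 421 TPM in 3-month replicate 1, against 1053 to 1300 in the other 5 libraries. Markers of the labelled tissue were thus present in all 6 libraries and lowest in 3-month replicate 1. Choroid plexus markers varied without regard to age, from 590 to 2473 TPM at 3 months and from 1467 to 1690 at 12 months. All 6 mice carried Xist, at 70.6 to 88.1 TPM at 3 months and 103 to 117 TPM at 12 months (change 0.47 ± 0.10, adjusted p = 0.0241, called higher), and 4 Y-linked genes were each at or below 0.0797 TPM. Correlations of log2 levels between replicates were 0.952 to 0.967 at 3 months and 0.970 to 0.971 at 12 months.

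Of the 17840 genes, 585 (3.28%) were called, 342 higher (1.92%) and 243 lower (1.36%) at 12 months, while the median change of all tested genes was 0.01. In 584 of the 585 the 3 libraries of one age lay wholly apart from those of the other. Among all tested genes, 11.3% lay apart with 12 months higher and 10.7% with 12 months lower. The changes of at least 1 on the log2 scale numbered 147 upward and 72 downward. On TPM as deposited, without scaling, 286 genes were called (1.6%; 205 higher, 1.15%, and 81 lower, 0.454%), and the share of calls that were higher went from 58.5% to 71.7%. The libraries that stood apart touched many of the calls: 3-month replicate 1 was the highest of the 6 libraries in 136 of the 243 genes that fell and the lowest in 179 of the 342 that rose. Without it 406 genes were called, 209 higher (1.17%) and 197 lower (1.1%), and 285 of the original 585 were among them. Without 3-month replicates 1 and 2, which leaves a single 3-month library whose spread is assumed to be that of the other groups, 115 were called (0.645%), 59 higher (0.331%) and 56 lower (0.314%). A fit on only the 6 libraries called 144 (0.816%), 106 higher (0.601%) and 38 lower (0.215%). Leaving out each of the 6 libraries in turn kept between 156 calls (without 12-month replicate 3) and 444 (without 3-month replicate 3), and 122 genes kept their call whichever library was left out.

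**Figure D1:**
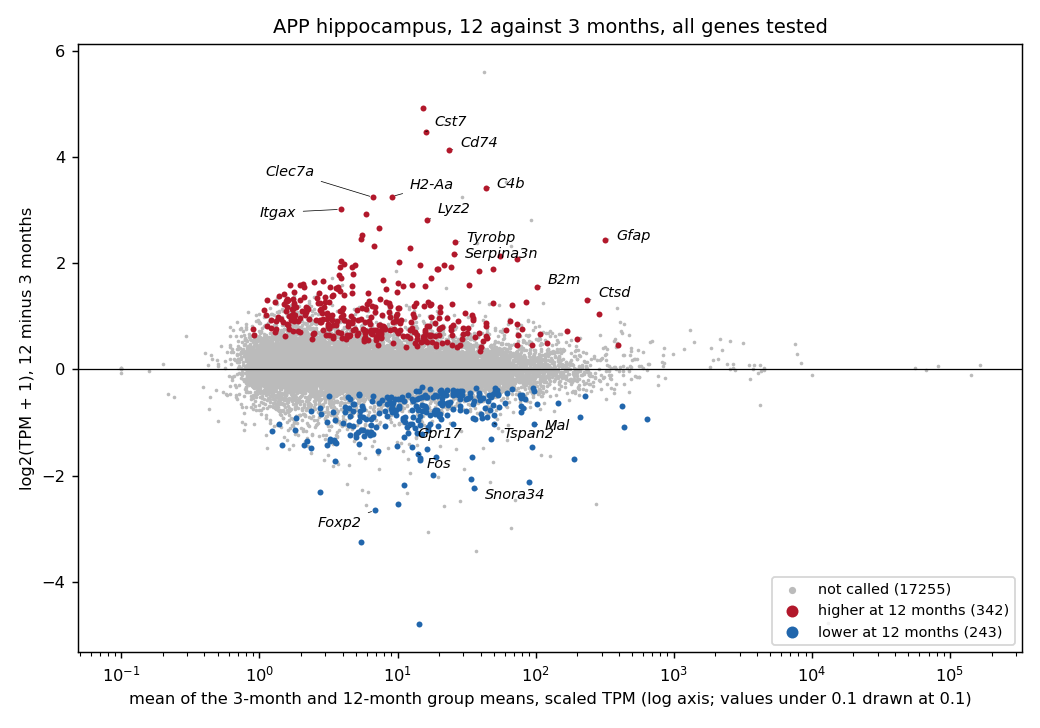
Each point is 1 of 17840 tested genes, with its mean level over the 6 libraries on the x axis and its log2 change, 12 minus 3 months, on the y axis. The 342 called higher and 243 called lower are coloured, and the labelled upward points are genes of microglia, antigen presentation, complement, astrocytes and lysosomes.

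Most of the genes that microglia raise around plaques rose. Of 25 tested members, 18 rose, beside 1.92% of all genes called higher, and none fell, with a median change of 1.56. Cst7, which encodes the cysteine protease inhibitor cystatin F (ENSMUSG00000068129, chr2:150570415-150578944, GRCm38), stood at 0.160, 1.40 and 0.0867 TPM in the 3 libraries at 3 months and at 36.2, 25.5 and 32.6 TPM at 12 months. Its 2 groups were far apart, from barely measured to well expressed, and its change was 4.47 ± 0.58 (adjusted p = 0.00156). The pattern recognition receptor Clec7a went from 0, 1.41 and 0.209 TPM to 16.2, 8.86 and 13.4 TPM, a change of 3.24 ± 0.57 (adjusted p = 0.00739). Every 12-month library again lay above every 3-month library. Itgax, the integrin subunit of complement receptor CR4, was at 0, 0.239 and 0 TPM at 3 months and at 8.86, 6.94 and 7.31 TPM at 12 months (change 3.01 ± 0.46, adjusted p = 0.0036).

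Tyrobp, the signalling adaptor of Trem2, is a gene that microglia already use at rest, and it stood at 5.80, 7.87 and 9.18 TPM at 3 months against 58.8, 35.8 and 40.1 TPM at 12 months. Its mean went from 7.62 ± 1.70 to 44.9 ± 12.3 TPM (SD, n = 3 each), a 5.90-fold difference (log2 change 2.40 ± 0.32, adjusted p = 0.00172). Trem2 itself, a receptor for lipids and amyloid, went from 3.40, 2.73 and 4.30 TPM to 21.2, 13.2 and 17.2 TPM (change 2.01 ± 0.45, adjusted p = 0.0251). The groups did not overlap, although the adjusted p of Trem2 was 0.103 without 12-month replicate 1 and 0.0621 without 3-month replicate 1. Lyz2, which encodes lysozyme and has a close copy in Lyz1 with which its reads may be shared, varied least within its groups. It lay at 3.49, 3.32 and 3.15 TPM at 3 months and at 28.9, 30.2 and 28.4 TPM at 12 months, 8.80-fold higher (change 2.81 ± 0.35, adjusted p = 0.00125).

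The chemokine Ccl6 rose by 2.92 ± 0.33 (adjusted p = 0.000706) and the membrane glycoprotein Gpnmb by 2.46 ± 0.27 (adjusted p = 0.00053). Gpnmb lay at 0.564, 1.26 and 0.959 TPM at 3 months and reached 7.79, 7.55 and 14.3 TPM at 12 months. Further members that rose were the scavenger receptor Cd68 (2.28), the osteopontin gene Spp1 (1.90), the growth factor Csf1 (1.05), the lipoprotein lipase gene Lpl (1.19), the tetraspanin Cd9 (0.82) and the receptor kinase Axl (0.55). Apoe, the main lipid carrier of the brain, was at 364, 283 and 291 TPM at 3 months and at 568, 552 and 568 TPM at 12 months. Its groups did not overlap, but its change of 0.86 ± 0.33 had an adjusted p of 0.192 in the shared estimate of spread. Ccl3, a chemokine too low to be tested, was listed at 0 in all 3 libraries at 3 months and at 5.45, 2.83 and 4.06 TPM at 12 months. The iron storage gene Fth1, Cd63, Lgals3, Ank, Cd83 and Igf1 were not called.

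Of the 18 calls in this group, 10 stayed whichever library was left out, and the fewest, 10, stayed without 12-month replicate 1. Besides Trem2, calls lost in that way were Cd52 (largest adjusted p 0.0666), Lgals3bp (0.0723), Capg (0.102), Lpl (0.127), Spp1 (0.0564), Cd9 (0.0521) and Axl (0.0919), each without 12-month replicate 1 or 3. Without 3-month replicate 1, 17 members were called, and without 3-month replicates 1 and 2, 8 were called. The 3 sums over the whole list were 1716, 1727 and 1557 TPM at 3 months and 2795, 2779 and 2557 TPM at 12 months.

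Genes of microglia in the healthy brain moved the same way but by less. Of 16 tested, 8 rose, beside 1.92% of all genes called higher, and none fell, with a median of 0.91. Csf1r, the receptor on which survival of microglia depends, went from 17.7, 18.9 and 19.3 TPM to 36.3, 33.4 and 38.2 TPM (change 0.91 ± 0.16, adjusted p = 0.00594). Its groups did not overlap. The receptor Gpr34 rose by 1.2, Ly86 by 1.97, Fcrls by 1.26, Olfml3 by 0.93, Aif1 by 1.14 and the purine receptor P2ry13 by 0.72.

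Other genes of the same list did not pass. The purine receptor P2ry12 was at 14.5, 13 and 18.4 TPM against 19.7, 22.4 and 18 TPM, with overlapping groups and a change of 0.38 ± 0.17 (adjusted p = 0.277). The fractalkine receptor Cx3cr1 was at 9.66 to 11.2 TPM at 3 months and at 8.21, 24.9 and 8.85 TPM at 12 months, so that its higher mean rested on 12-month replicate 2. Siglech lay at 3.97 to 5.30 TPM and 3.90 to 5.61 TPM. Of the 8 calls, 4 stayed whichever library was left out, the fewest without 12-month replicate 3: Fcrls, Olfml3, Aif1 and P2ry13 reached adjusted p values of 0.0539, 0.0504, 0.14 and 0.102, the last 2 without 12-month replicate 1. In whole-tissue RNA, more cells of a type and more RNA per cell cannot be told apart. Of 10 T cell and 7 B cell markers, 8 and 5 were among the genes listed, and Trac, Trbc2, Ighm and Igkc were not. The listed ones and 6 markers of neutrophils were all below the level for testing, with sums of at most 3.1 TPM in any of the 6 libraries. Of 7 markers of border macrophages only Mrc1 was tested, and it was not called (change 0.23, adjusted p = 0.671).

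**Figure D2:**
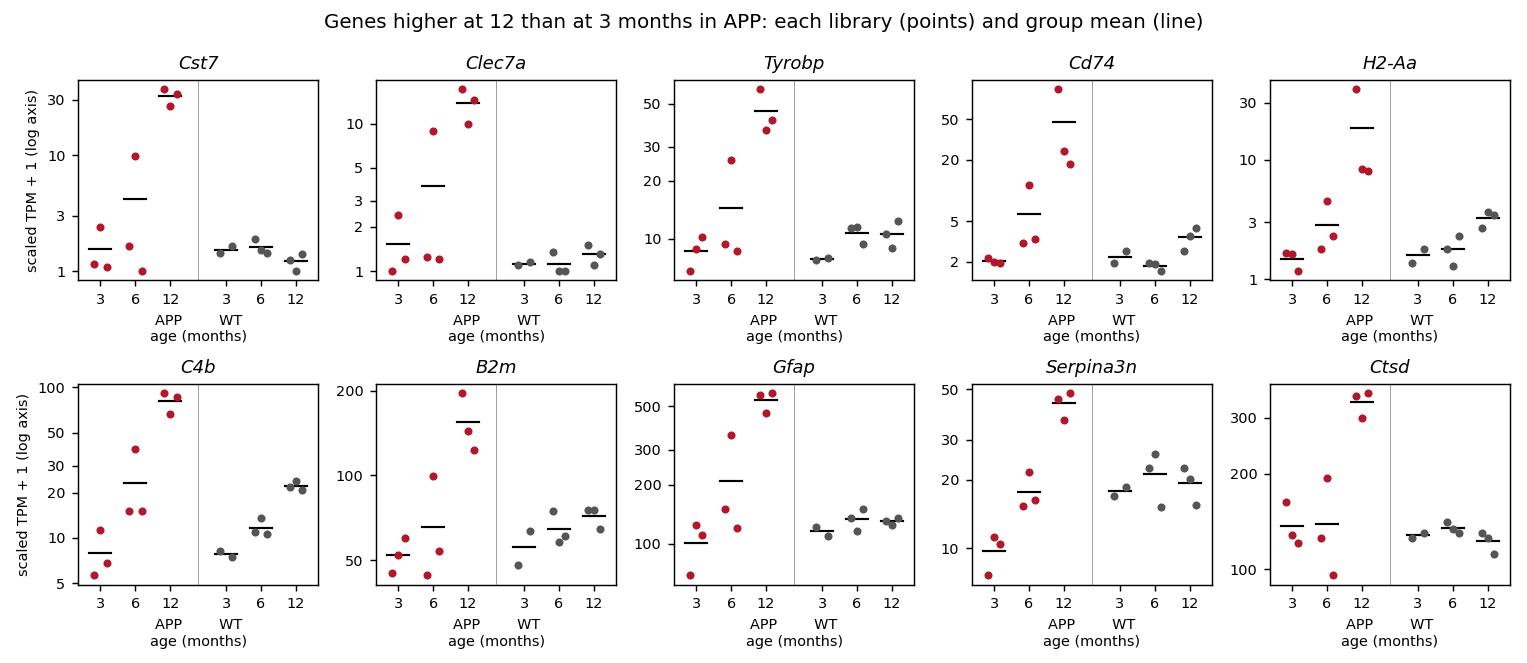
TPM + 1 (log axis) of 10 genes that rose between 3 and 12 months, by age, with each APP and each WT library as a point. The 12-month APP libraries lie above the 3-month APP libraries for each of the 10, while at 6 months 1 APP library often lies above the other 2.

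Complement genes followed. Of 13 tested, 7 rose, beside 1.92% of all genes called higher, and none fell, with a median change of 1.15. The largest rise was that of C4b (chr17:34728380-34743882), the precursor of the complement factor that joins C2 in the classical convertase. It was at 4.64, 10.2 and 5.83 TPM at 3 months and at 90.4, 65.8 and 84.8 TPM at 12 months, with means of 6.90 ± 2.94 and 80.3 ± 12.9 TPM (SD, n = 3 each), 11.6-fold higher. The change of 3.41 ± 0.31 had the smallest adjusted p among the genes named here, 0.000245, and it was at most 0.00347 with any of the 6 libraries left out. C4b has a near-identical copy in C4a, and how reads were divided between them is not given.

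The 3 chains of C1q, the recognition molecule of the classical pathway, rose side by side. C1qa went from 20.1, 21.4 and 17 TPM to 120, 69.1 and 83.1 TPM, a 4.65-fold difference in means. C1qb and C1qc changed by 1.88 and 1.85, beside 2.13 for C1qa. In all 3 chains 12-month replicate 1 was the highest library. The receptor C3ar1 rose by 1.15 and the integrin subunit Itgb2 by 1.39, but both lost the call without 12-month replicate 1 or 3 (largest adjusted p 0.0669 and 0.0773). The regulator Serping1 was not called (0.92 ± 0.29, adjusted p = 0.104).

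MHC class II genes, whose products present peptides taken up from outside the cell, were nearly silent at 3 months. Of 5 tested, 4 rose, beside 1.92% of all genes called higher, with a median of 2.66. Members near 0 TPM at 3 months passed the filter through other groups, the 12-month APP mice among them. The count among tested members therefore leans upward. Cd74, the invariant chain, went from 1.179, 0.968 and 0.949 TPM to 98.0, 23.3 and 17.3 TPM (change 4.12 ± 0.53, adjusted p = 0.00153). H2-Aa went from 0.650, 0.634 and 0.167 TPM to 38.4, 7.46 and 7.14 TPM (change 3.25 ± 0.49, adjusted p = 0.00316). The 12-month mice were uneven here: replicate 1 was several times above the other pair in Cd74, H2-Aa, H2-Ab1 and H2-Eb1, and the list summed to 208, 53.0 and 45.8 TPM at 12 months against 7.87 to 8.61 TPM at 3 months. H2-Ab1 rose by 2.66 (adjusted p = 0.00884) and H2-Eb1 by 2.54 (adjusted p = 0.0188), and the latter was at 0.0821 without 12-month replicate 1. H2-DMa, which loads the peptide, was not called (0.78 ± 0.23, adjusted p = 0.0751). In a fit on only the 6 libraries 1 of the 4 calls was kept.

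MHC class I genes, which present peptides from inside the cell, rose in 8 of 13 tested, beside 1.92% of all genes called higher. Their median was 0.91 and none was lower. B2m, the light chain shared by class I molecules, went from 44.1, 51.1 and 58.6 TPM to 195, 143 and 122 TPM (2.99-fold in means, change 1.54 ± 0.25, adjusted p = 0.00407). The heavy chain H2-D1 went from 7.32, 11.7 and 8.83 TPM to 57.8, 30.4 and 29.5 TPM (change 1.92 ± 0.30, adjusted p = 0.00348). Again 12-month replicate 1 was the highest of the 6. The peptide transporter genes Tap1 (0.95) and Tap2 (0.78), the immunoproteasome subunit Psmb8 (1.60) and H2-K1 (1.72) also rose. Class I heavy chains are a family of similar sequences, so their reads may be divided among them. Psmb8, H2-Q4, Tap1 and H2-M3 each lost the call with 1 library left out (largest adjusted p 0.0607, 0.0594, 0.102 and 0.14, without 3-month replicate 1, 3-month replicate 2, 12-month replicate 3 and 3-month replicate 2), and without 3-month replicates 1 and 2 no member was called.

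The promoters of these genes are known to share short elements, of which the Y box (CTGATTGG or its reverse complement) is one. It was searched on both strands in the 250 bases before each gene's start in RefSeq promoters (GRCm38.p6). It lay in 3 of 7 MHC class II promoters and 5 of 13 MHC class I promoters with an entry, against 3.83% of all 32851 promoters and 6.28% of those of tested genes. Its share was of similar size in lists that did not rise: 4 of 11 heat shock promoters and 5 of 15 cholesterol synthesis promoters held it. Among the genes called higher its share was 5.42%. The 150 bases before the start are shown for 3 members, with the Y box in capitals, because these members carry the rise described above.
H2-Aa (chr17:34287824-34287973, minus strand): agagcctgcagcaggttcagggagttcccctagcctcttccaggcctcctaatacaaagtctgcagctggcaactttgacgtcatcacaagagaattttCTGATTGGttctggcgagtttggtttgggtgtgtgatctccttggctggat
H2-Eb1 (chr17:34305717-34305866, plus strand): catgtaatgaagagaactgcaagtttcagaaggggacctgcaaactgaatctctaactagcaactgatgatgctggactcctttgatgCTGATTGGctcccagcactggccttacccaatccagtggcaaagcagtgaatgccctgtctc
H2-D1 (chr17:35262944-35263093, plus strand): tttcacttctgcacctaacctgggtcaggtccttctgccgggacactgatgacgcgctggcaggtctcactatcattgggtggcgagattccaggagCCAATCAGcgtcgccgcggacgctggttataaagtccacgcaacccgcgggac

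Interferon-stimulated genes rose in 8 of 19 tested, beside 1.92% of all genes called higher, with a median of 1.02 and none lower. Bst2, which encodes the membrane protein tetherin, went from 1.63, 0.610 and 2.07 TPM to 7.65, 4.79 and 5.59 TPM (change 1.55 ± 0.27, adjusted p = 0.00739). Irf8, a transcription factor of the interferon regulatory family that microglia use, went from 1.26, 1.49 and 2.85 TPM to 10.3, 6.46 and 5.68 TPM (change 1.56 ± 0.26, adjusted p = 0.00514). Neither pair of groups overlapped. Oasl2 rose by 1.44, the membrane protein Ifitm3 by 1.46, Ifi27 by 1.03, the GTPase Gbp2 by 1.28 and Ifit3 by 1.22. Ifit3b rose by 1.03 and is a close copy of Ifit3, so reads of the pair may be shared. Isg15 was not called (1.02 ± 0.29, adjusted p = 0.0731) although its groups did not overlap, and Stat2 lay at -0.18. Gbp2, Ifit3, Ifit3b and Ifi27 lost the call without 12-month replicate 1 (adjusted p 0.0537, 0.0587, 0.144 and 0.0546).

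The core of the interferon-stimulated response element, a pair of GAAA runs with any 2 bases between them on either strand, was found in 11 of 21 interferon-stimulated promoters with an entry (52.4%), against 2.98% of all promoters and 3.03% of those of tested genes. Its share was 6.25% among 240 promoters of genes called higher and 2.31% among 173 of genes called lower. These lists were chosen for their known link to interferon, so the match describes the list. Overlapping matches were not particular to genes that rose. Isg15 and Gbp3 held them without being called (adjusted p 0.0731 and 0.142), and so did Oas1a, which was too low to be tested. Bst2 is shown as 1 gene with a pair of overlapping matches, in capitals, in the 150 bases before its start.
Bst2 (chr8:71537473-71537622, minus strand): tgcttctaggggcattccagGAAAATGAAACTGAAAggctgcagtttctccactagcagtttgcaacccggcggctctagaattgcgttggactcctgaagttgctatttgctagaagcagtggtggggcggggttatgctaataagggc

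Receptors and signalling genes of phagocytes rose in 10 of 17 tested, beside 1.92% of all genes called higher. Their median was 1.11 and none was lower. Fcer1g, the common chain of activating Fc receptors, went from 6.48, 4.94 and 5.94 TPM to 19.3, 23 and 16.4 TPM (change 1.60 ± 0.22, adjusted p = 0.00187). Fcgr2b, the inhibitory Fc receptor, went from 1.04, 1.65 and 1.16 TPM to 6.59, 5.91 and 6.97 TPM (change 1.72 ± 0.24, adjusted p = 0.00187). The groups of both lay well apart, so activating and inhibitory receptor genes were higher together. Cd14, a co-receptor for bacterial lipid, rose by 1.67, the pore-forming protein gene Mpeg1 by 1.90, the leukocyte phosphatase Ptprc by 1.51 and the sialic acid receptor Cd33 by 0.84. Spi1, which encodes the myeloid transcription factor PU.1, was at 0.721 to 1.12 TPM and 2.21 to 4.32 TPM and was not called (1.04 ± 0.35, adjusted p = 0.137). Fcgr3, Cd84, Hcls1 and Cd33 lost the call with 1 library left out (largest adjusted p 0.0508, 0.0873, 0.0939 and 0.147, the first without 12-month replicate 1 and the others without 12-month replicate 3).

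Lysosomal genes changed by smaller amounts from higher levels. Of 32 tested, 14 rose, beside 1.92% of all genes called higher, and none fell, with a median of 0.42. Ctsd, which encodes cathepsin D, the main aspartic protease of the lysosome, was at 162, 128 and 120 TPM at 3 months and at 351, 298 and 358 TPM at 12 months. Its means were 136 ± 22.2 and 336 ± 33.0 TPM (SD, n = 3 each), 2.46-fold higher at 12 months (change 1.3 ± 0.19, adjusted p = 0.00294). Ctss, a cysteine cathepsin of antigen-presenting cells, went from 25.4, 31.4 and 26.4 TPM to 142, 109 and 109 TPM, 4.32-fold higher in means. The progranulin gene Grn went from 15.9, 22.2 and 20.6 TPM to 39.4, 42.4 and 43.5 TPM (change 1.07 ± 0.15, adjusted p = 0.00262). None of these 3 genes had overlapping groups.

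Ctsz rose by 1.59, the membrane protein gene Laptm5 by 1.96, Ctsh by 1.27 and the sugar-cleaving hydrolases Hexa, Naglu, Man2b1 and Gusb by 0.83, 0.84, 0.82 and 0.74. Among members that were not called, the tetraspanin gene Cd63 (0.68 ± 0.25, adjusted p = 0.165) and Lamp2 (0.40 ± 0.16, adjusted p = 0.205), a membrane protein gene at 43.6 to 60.0 TPM against 62.2 to 72.9 TPM, lay above the median of all genes. The membrane protein gene Lamp1 was at 132, 108 and 117 TPM against 123, 121 and 121 TPM (0.04 ± 0.09, adjusted p = 0.905), and the sphingolipid activator Psap was at 457 to 488 TPM against 477 to 523 TPM. The 3 tested subunits of the proton pump lay between -0.08 and 0.10. Of the 14 calls, 11 stayed whichever library was left out. The exceptions were Ctsc, Gusb and Npc2, with adjusted p values of 0.0666, 0.0851 and 0.156 without 12-month replicate 1, and Gusb was at 0.0621 without 3-month replicate 1.

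Reactive astrocyte genes rose in 9 of 19 tested, beside 1.92% of all genes called higher, with a median of 1.2 and none lower. Gfap (chr11:102887336-102900912) was at 68.3, 123 and 110 TPM at 3 months and at 570, 460 and 582 TPM at 12 months, with means of 100 ± 28.7 and 537 ± 67.2 TPM (SD, n = 3 each). The difference was 5.35-fold (change 2.44 ± 0.30, adjusted p = 0.00125). Serpina3n, a secreted protease inhibitor, went from 6.58, 10.2 and 9.38 TPM to 44.2, 35.7 and 47.0 TPM, 4.85-fold higher (change 2.17 ± 0.21, adjusted p = 0.000349). Both genes were called with any of the 6 libraries left out. Vim, a second intermediate filament gene, rose by 1.2, the glycosyltransferase Ggta1 by 1.35, the cytokine receptor Osmr by 1.55, Srgn by 1.45 and Aspg by 1.26. Osmr, Srgn and Aspg were at adjusted p values of 0.106, 0.0873 and 0.141 without 12-month replicate 3. Of the same list, Gbp2 and Psmb8 are also counted above under interferon and MHC class I.

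Genes that astrocytes express in the healthy brain were nearly flat as a list, with a median of 0.05. Of 16 tested, 1 was called higher, beside 1.92% of all genes. The called gene was Sox9, a transcription factor of astrocytes, which went from 12.2, 11.6 and 12.1 TPM to 17.9, 19.8 and 19.2 TPM (change 0.62 ± 0.10, adjusted p = 0.00456). On TPM as deposited it was not called. The glutamate transporters Slc1a2 (375, 530 and 538 TPM against 597, 601 and 643 TPM) and Slc1a3 (102, 93.7 and 124 TPM against 142, 131 and 139 TPM) changed by 0.37 each, with adjusted p values of 0.174 and 0.0541. The water channel gene Aqp4 lay at 45.3 to 63.2 TPM and 56.2 to 57.3 TPM (0.15, adjusted p = 0.616).

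**Figure D3:**
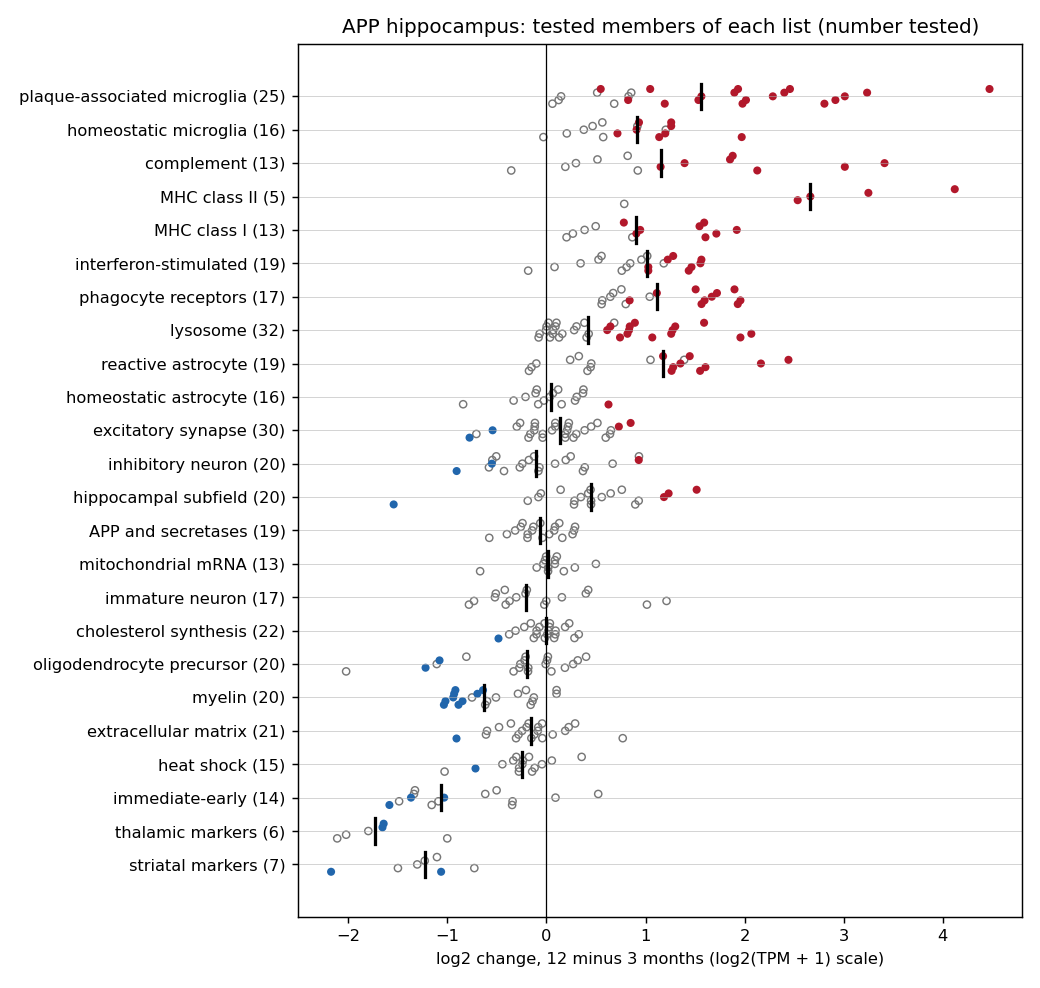
Log2 change, 12 minus 3 months, of each tested member of 24 gene lists, with the median of each list and called members marked. Medians run from 2.66 for MHC class II genes to -1.73 for thalamic markers, with striatal markers at -1.23 and immediate-early genes at -1.06. No called member of the microglia, complement, MHC, interferon, phagocyte, lysosome or reactive astrocyte lists is lower.

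Downward changes were spread over other kinds of genes. Myelin genes, expressed by mature oligodendrocytes, fell in 9 of 20 tested, beside 1.36% of all genes called lower, with a median of -0.63 and none higher. Tspan2 (chr3:102734529-102801513), a tetraspanin of oligodendrocytes, was at 88.2, 40.5 and 76.9 TPM at 3 months and at 31.9, 32.9 and 30.0 TPM at 12 months, with means of 68.5 ± 25 and 31.6 ± 1.45 TPM (SD, n = 3 each). Its change was -1.02 ± 0.20 (adjusted p = 0.0124). Of its 3-month libraries, replicate 2 lay closest to the 12-month level. Mal (-1.04), Ugt8a (-0.92), Mog (-0.93), Mbp (-0.89), Fa2h (-0.85), Mobp (-0.70) and Cnp (-0.64) also fell.

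None of the 9 myelin calls stayed whichever library was left out. Without 12-month replicate 3 none of them was called, and the adjusted p of Tspan2 and Mal was then 0.0613 and 0.0658. Without 3-month replicate 1 the calls were 3, Tspan2 and Mal among them, and without 3-month replicates 1 and 2 they were 7. White matter borders the hippocampus, and the list summed to 3399, 2014 and 2762 TPM at 3 months against 1555 to 1711 TPM at 12 months, where the thalamic markers summed to 501, 181 and 61.3 TPM in the same 3-month libraries. The part of neighbouring tissue in the myelin change was not tested beyond these fits. In the WT mice Tspan2 was at 49.5 and 45.5 TPM at 3 months and at 29.9 ± 0.50 TPM (SD, n = 3) at 12 months, a change of -0.65 (adjusted p = 0.454). WT mice carried Xist at 3 months and Y-linked transcripts at 12 months, so their age and sex cannot be told apart here and below.

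Among genes of oligodendrocyte precursors and newly formed oligodendrocytes, 2 of 20 fell and none rose. The list median was -0.20, and 1.36% of all genes were called lower. Gpr17, a receptor of cells about to form myelin, went from 18.6, 10.3 and 20.2 TPM to 6.63, 6.77 and 7.39 TPM (change -1.08 ± 0.19, adjusted p = 0.00802) and was called with any of the 6 libraries left out. It also fell in the WT mice between the same ages, from 16.2 and 19.3 TPM to 4.90 to 6.73 TPM (change -1.44, adjusted p = 0.0184). The difference between the genotypes in this change was 0.36 (adjusted p = 0.743). Age and sex cannot be told apart in the WT values. Tmem163 fell by 1.22, and its adjusted p was 0.146 without 3-month replicate 1. The precursor marker Pdgfra was at 13 to 18.3 TPM and 14.4 to 15.2 TPM, with a change of -0.01.

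Immediate-early genes, transcribed within minutes of neuronal activity, had a median of -1.06, and 3 of 14 fell, beside 1.36% of all genes. Fos (chr12:85473890-85477273) was at 15.9, 27.0 and 21.9 TPM at 3 months and at 6.48, 5.54 and 7.21 TPM at 12 months, 3.37-fold higher at 3 months (change -1.59 ± 0.24, adjusted p = 0.00312). Dusp1, which encodes a phosphatase of MAP kinases, went from 19.1, 19.0 and 14.1 TPM to 7.74, 7.64 and 8.39 TPM (change -1.03 ± 0.22, adjusted p = 0.0222), and Egr2 fell by 1.37. The 3-month libraries were split in other members. Arc, which acts at synapses, was at 20.5, 138 and 129 TPM at 3 months and at 24.6 to 31.0 TPM at 12 months, and Egr1 was at 21.1, 80.3 and 92.5 TPM against 15.8 to 22.4 TPM. In both, 3-month replicate 1 lay at the 12-month level while the other pair was several times higher.

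With all libraries Arc (-1.33 ± 0.50, adjusted p = 0.185) and Egr1 (-1.49 ± 0.41, adjusted p = 0.0626) were not called. Without 3-month replicate 1 the list had 8 lower calls, among them Arc (-2.21, adjusted p = 0.0005) and Egr1 (-2.15, adjusted p = 0.0019). The synaptic scaffold gene Homer1, which has an activity-induced short form, moved in the same manner: it was at 46.5, 135 and 175 TPM at 3 months and at 56.6 to 70.4 TPM at 12 months, with an adjusted p of 0.305 with all libraries and 0.0036 without that replicate. Dusp1 and Egr2 lost the call with 1 library left out, at most at 0.0792 and 0.103, both without 12-month replicate 1. How the mice were handled before dissection is not in the labels, and its part was not tested. In WT mice Fos was at 9.93 and 12.5 TPM at 3 months and 5.07 ± 0.662 TPM (SD, n = 3) at 12 months (change -1.01, adjusted p = 0.302).

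**Figure D4:**
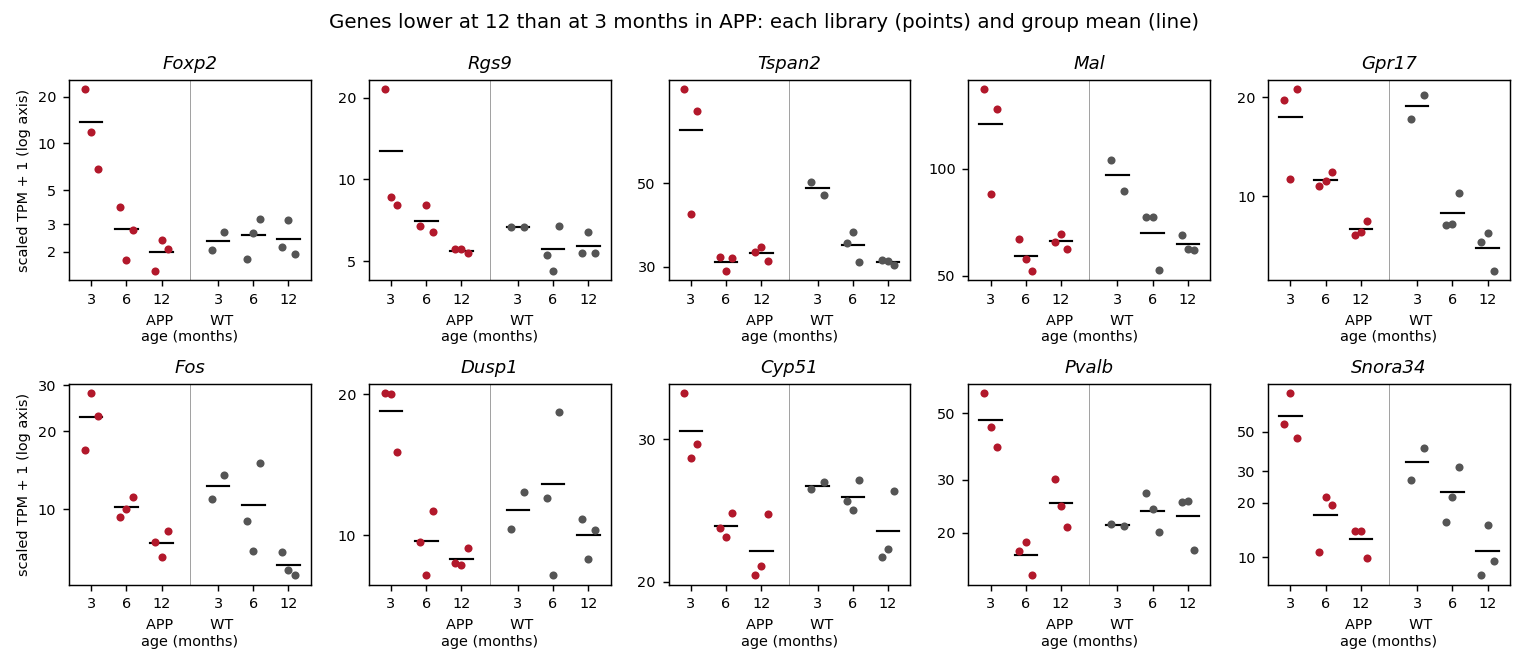
TPM + 1 (log axis) of 10 genes that fell between 3 and 12 months in APP mice, by age, with each APP and each WT library as a point. For Foxp2 and Rgs9 the 3-month APP libraries spread widely, while for Fos and Dusp1 they lie together above the 12-month libraries.

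Of 15 genes of the heat shock response, chaperone genes and Hsf1, 1 was called lower, beside 1.36% of all genes, and none higher. The list median was -0.24 against 0.01 over all genes. In 4 of the 15 every 12-month library lay below every 3-month library, beside 10.7% of all genes. In 1, Bag3, every 12-month library lay above, beside 11.3% of all genes, without a call (0.36 ± 0.15, adjusted p = 0.258). The changes of 2 members lay above the median of all genes. The called gene was Dnajb1, a co-chaperone of Hsp70, which went from 18.6, 22.2 and 20.3 TPM to 13.3, 11.2 and 11.4 TPM (change -0.72 ± 0.10, adjusted p = 0.00181). It stayed called with any of the 6 libraries left out. Hspa5, the chaperone BiP of the endoplasmic reticulum, was at 200, 139 and 208 TPM against 108, 68.8 and 89.9 TPM without being called (-1.03 ± 0.33, adjusted p = 0.114). Hsf1, the transcription factor of the heat shock response that the series targets elsewhere in a cell line, was at 10.6, 15.6 and 12.7 TPM against 11.7, 13.7 and 11.9 TPM (-0.05 ± 0.15, adjusted p = 0.923).

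A few neuronal genes were called, in both directions. Of 30 genes of excitatory synapses, 2 rose and 2 fell, beside 1.92% and 1.36% of all genes, with a median of 0.14. The AMPA receptor subunit Gria1 was at 93.6, 132 and 158 TPM against 198, 206 and 221 TPM (change 0.73 ± 0.16, adjusted p = 0.0208), and its partner Cacng8 rose by 0.85. The subunit Gria4, by contrast, was at 48.1, 36.6 and 34.9 TPM against 23.1, 23.8 and 21 TPM (-0.78 ± 0.16, adjusted p = 0.0202), and the metabotropic receptor Grm3 fell by 0.54. At 3 months replicate 1 was the highest library for Gria4 and the lowest for the other 3 genes, Grm3 included, whose adjusted p was 0.0222 without it. None of the 4 kept its call whichever library was left out: the largest adjusted p was 0.0933 for Gria1 and Gria4, 0.123 for Cacng8 and 0.117 for Grm3, all without 12-month replicate 3. Gria4 was at 0.068 without 3-month replicate 1.

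Among 20 genes of inhibitory neurons, Pvalb and the GABA receptor subunit Gabrb2 fell and the nitric oxide synthase Nos1 rose, with a list median of -0.10. Of all genes, 1.36% were called lower and 1.92% higher. Pvalb, the calcium buffer of fast-spiking interneurons, went from 57.5, 44.1 and 37.7 TPM to 29.2, 23.6 and 19.8 TPM (change -0.91 ± 0.19, adjusted p = 0.0178). The 3 lost the call without 3-month replicate 1, with adjusted p values of 0.063, 0.084 and 0.061, and without 12-month replicate 3 Pvalb and Nos1 were at 0.0948 and 0.086, while Gabrb2 was at 0.106 without 12-month replicate 1. The GABA-synthesising gene Gad1 was at 144, 125 and 115 TPM against 92.8 to 95.3 TPM and was not called (-0.43, adjusted p = 0.111). Thalamic neurons bordering the hippocampus also use some of these genes, and the thalamic marker sums followed the same order of the 3-month libraries as Pvalb, Gad1 and Gria4. The part of neighbouring tissue in these changes was not tested beyond the fits given.

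Genes that mark the fields of the hippocampus rose in 3 of 20, with 1 lower and a median of 0.45. Of all genes, 1.92% were called higher and 1.36% lower. C1ql2, a synaptic organiser of the dentate gyrus, went from 7.50, 13 and 10.3 TPM to 23.9, 25.9 and 25.0 TPM (change 1.23 ± 0.21, adjusted p = 0.00597). Fibcd1, a marker of CA1, went from 7.31, 7.19 and 13.5 TPM to 19.7, 19.97 and 25.7 TPM (change 1.19 ± 0.21, adjusted p = 0.00739), and Spink8 rose by 1.52, with an adjusted p of 0.0873 without 12-month replicate 3 and 0.057 without 3-month replicate 1. Coch, the cochlin gene, fell from 13.5, 10.4 and 9.68 TPM to 2.50, 3.34 and 3.68 TPM (change -1.54 ± 0.18, adjusted p = 0.000992) and was called with any of the 6 libraries left out. None of the 8 hippocampal neuron markers used to check the tissue was called, with a median of 0.65. Neurod6 was at 8.06, 38.8 and 73.5 TPM at 3 months against 67.2 to 70.6 TPM, so that 3-month replicate 1 alone set most of its change.

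Some thalamic and striatal markers fell. The nuclear receptor Rora was at 102, 44.8 and 20.3 TPM at 3 months and at 12.3 to 16.6 TPM at 12 months (change -1.64 ± 0.38, adjusted p = 0.0286). Rgs9, which encodes a regulator of G-protein signalling enriched in the striatum, was at 20.5, 7.64 and 7.03 TPM and at 4.34 to 4.54 TPM (change -1.06 ± 0.28, adjusted p = 0.0496). The median of 6 thalamic markers was -1.73 with all libraries, -1.09 without 3-month replicate 1 and -0.39 without replicates 1 and 2. Since these 2 libraries were picked for their high levels of the same markers, a smaller median without them follows from that choice. Rora was then at adjusted p values of 0.053 and 0.48, and Plekhg1, the other called thalamic marker, at 0.079 and 0.6. Rgs9 was at 0.074 without 3-month replicate 1 and 0.15 without 12-month replicate 3.

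Among the largest falls, several had the same gradient. Foxp2 (chr6:14901349-15441977), a forkhead transcription factor of thalamic and striatal neurons, was at 21.6, 10.9 and 5.82 TPM at 3 months and at 0.494, 1.37 and 1.07 TPM at 12 months (change -2.65 ± 0.39, adjusted p = 0.00294). Plcb4, Pcp4, Zdhhc22, Adra1b and Scn4b, with changes of -2.06, -1.69, -1.71, -1.72 and -1.66, were likewise highest in replicate 1 and lowest in replicate 3 among the 3-month libraries. Foxp2 and Scn4b were called without 3-month replicate 1 (adjusted p 0.0078 and 0.013), and Plcb4, Pcp4, Zdhhc22 and Adra1b were not (0.086, 0.08, 0.11 and 0.076). The last 4 also lost the call without 12-month replicates 1 or 3, with largest adjusted p values of 0.136, 0.135, 0.126 and 0.0904.

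Pdp1, a phosphatase that activates pyruvate dehydrogenase, fell 4.96-fold in means, from 253, 105 and 87.0 TPM to 29.1, 32.1 and 28.4 TPM (change -2.11 ± 0.32, adjusted p = 0.00328). Unlike the thalamic markers it was still called without 3-month replicates 1 and 2 (-1.51, adjusted p = 0.048). In WT mice it stood at 33.4 and 40.2 TPM at 3 months and 32.6 ± 1.40 TPM (SD, n = 3) at 12 months, close to the 12-month APP level.

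**Figure D5:**
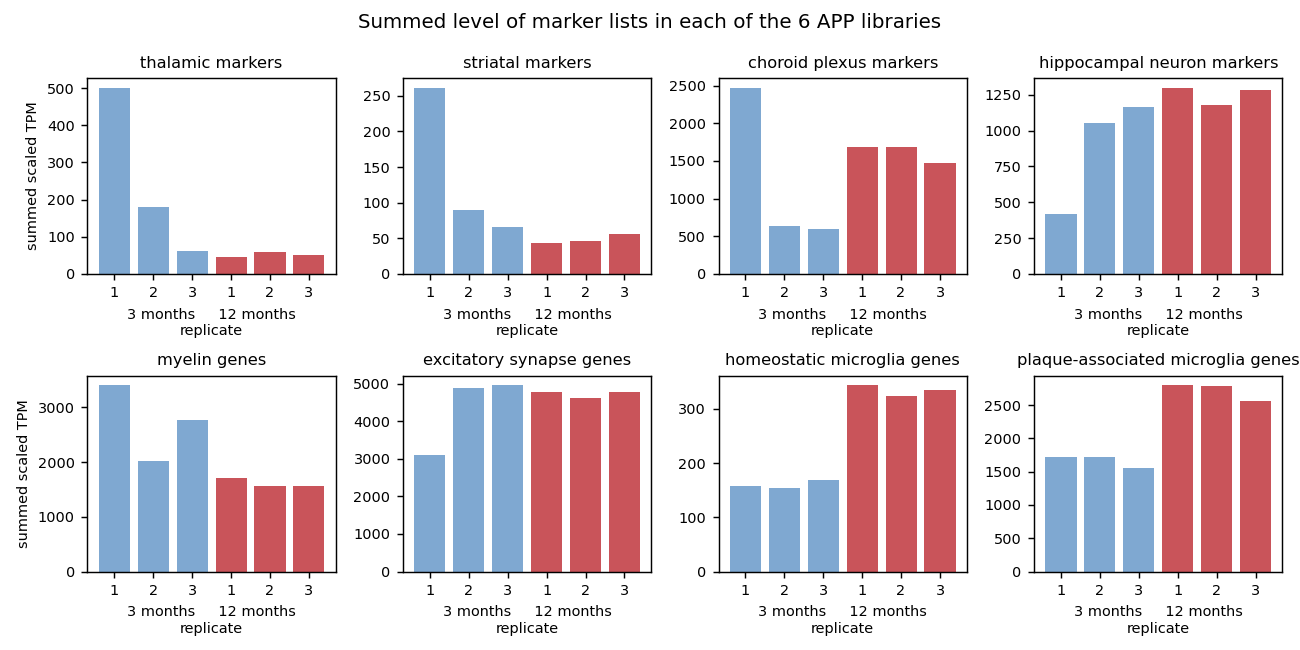
Summed TPM of 8 gene lists in each of the 6 libraries, as bars from 0. Thalamic and striatal markers are highest in 3-month replicate 1 and hippocampal neuron markers lowest there. The sums of plaque-related and of healthy-brain microglia genes are higher in every 12-month library than in every 3-month library.

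Small nucleolar RNAs, which guide modification of other RNAs and are very short, gave 9 calls among 369 tested, 6 lower and 3 higher, a smaller share than the 3.28% of all genes. Snora34 went from 53.8, 80.9 and 44.8 TPM to 13, 13 and 8.91 TPM (change -2.24 ± 0.33, adjusted p = 0.00281), and Snora3 fell by 3.25 but was at 0.0696 without 12-month replicate 3. Among called genes, the largest upward and the largest downward change both carried the name Rnu3a. Its 2 identifiers cover almost the same bases (chr10:40258467-40258680 and chr10:40258467-40258679), and 1 rose by 4.92 while the other fell by 4.80. Summed, the entries gave 23.6, 20.1 and 42.1 TPM at 3 months and 31.5, 21.3 and 38.7 TPM at 12 months, with overlapping groups, so the 2 calls record to which entry the reads were assigned. No other called gene shared its span with another gene on the same strand at 95% or more.

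App (chr16:84949685-85173766), the gene that carries the knock-in, was at 247, 316 and 278 TPM at 3 months and at 415, 421 and 221 TPM at 12 months. Its groups overlapped because 12-month replicate 3 was the lowest of all, and the change of 0.28 ± 0.20 was not called (adjusted p = 0.564). None of 19 tested genes of amyloid processing was called, with a median of -0.06. The β-secretase gene Bace1 lay at -0.26 ± 0.13 (adjusted p = 0.336), the amyloid-degrading protease gene Ide at 0.29 ± 0.17 (adjusted p = 0.447) and the tau gene Mapt at -0.19 ± 0.22 (adjusted p = 0.74).

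Several further lists held few or no calls, where 3.28% of all genes were called. Mitochondrially encoded mRNAs (13 tested), genes of the Polycomb complexes (9), genes of cell division (11) and genes of immature neurons (17) had none. Ezh2, the Polycomb methyltransferase, was at 11.4, 8.69 and 8.25 TPM against 5.72, 8.97 and 7.82 TPM (-0.30 ± 0.30, adjusted p = 0.688). Doublecortin, Dcx, which marks immature neurons, was at 5.53 to 7.83 TPM against 4.48 to 5.02 TPM (-0.42 ± 0.18, adjusted p = 0.236). Its groups did not overlap, yet the difference did not pass. Of 22 genes of cholesterol synthesis only Cyp51 was called, lower by 0.49, and it was at 0.0879 without 12-month replicate 1 and 0.058 without 3-month replicate 1. Of 21 genes of the extracellular matrix only Tnc was, lower by 0.92, and it was at 0.123 without 12-month replicate 1 and 0.11 without 3-month replicate 1. Markers of endothelial and mural cells (11 tested), blood (5) and choroid plexus (10) had no call.

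The 6-month mice are set beside the other ages, with the limit that their comparisons share libraries with that of 12 against 3 months. The genes followed here were called on their 3-month and 12-month means. An extreme mean at either age would by itself leave the 6-month mean nearer the other. Between 6 and 3 months 421 genes were called (2.36%), 227 higher (1.27%) and 194 lower (1.09%), and between 12 and 6 months 96 (0.538%), 92 higher (0.516%) and 4 lower (0.0224%). On TPM as deposited the median of all genes was 0.26 for 6 against 3 months, with 1207 calls higher and 63 lower, and -0.28 for 12 against 6 months, with 21 higher and 5 lower. Among the APP libraries those at 6 months had the largest scale factors (1.12 to 1.46), so overall counts that involve this age depend on the scaling.

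The immune and glial lists kept 1 position under both scalings. For 17 of the 18 plaque-related calls of microglia, and for every call in the healthy-brain microglia, complement, MHC, interferon, phagocyte, lysosome and reactive astrocyte lists, the 6-month mean lay nearer the 3-month than the 12-month mean. On TPM as deposited this held for 15 of the 18, for all of the microglia, complement, MHC class II and interferon calls and for all but 1 in each of the MHC class I, phagocyte, lysosome and reactive astrocyte lists. C4b was at 14.1, 38 and 14 TPM at 6 months, and Gfap at 149, 357 and 119 TPM. Replicate 2 of the 6-month mice was the highest of its age in both, as it was for Cst7 (0.658, 8.90 and 0 TPM) and Tyrobp (8.43, 24.5 and 7.67 TPM).

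The genes that fell had another position. All 9 myelin calls and all 3 immediate-early calls lay nearer their 12-month mean at 6 months, under both scalings. A high 3-month mean would also give this position. Over all 243 genes that fell, 3-month replicate 1 was the highest of the 6 libraries in 136, and its part in the position was not tested. As a list, myelin genes summed to 1459, 1337 and 1157 TPM at 6 months, below the 1555 to 1711 TPM at 12 months. Their median change from 3 to 6 months was -1.04, with 14 of 20 called lower. From 6 to 12 months it was 0.25, with none called. These values rest on the scaling, whose factors were largest at 6 months among the APP libraries. Tspan2 was at 30.7, 28.2 and 30.6 TPM at 6 months, a change of -1.10 from 3 months (adjusted p = 0.0141) and of 0.08 from 6 to 12 months (adjusted p = 0.927). Fos was at 8.29, 9.01 and 10.1 TPM at 6 months (-1.13 from 3 months, adjusted p = 0.0273). Over all genes the count depended on the scaling: of the 243 that fell, 224 lay nearer their 12-month mean at 6 months as scaled, and 124 on TPM as deposited. Of the 342 that rose, 149 and 202 did.

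The WT mice allow the age change to be compared between genotypes, with the limit that their ages also differ in Xist and Y-linked transcripts. Between 12 and 3 months WT mice had 11 calls (0.0617%), 6 higher (0.0336%) and 5 lower (0.028%), with 2 libraries at 3 months, and none of the immune or glial lists that rose in APP mice held a call. Among the WT calls were 4 Y-linked genes, higher at 12 months, and Xist, lower. The direct test, the change in APP mice minus that in WT mice, was passed by 13 genes (0.0729%), 7 higher (0.0392%) and 6 lower (0.0336%). Of these, 5, Xist and 4 Y-linked genes, rest mostly on the WT libraries, which carried Xist at 3 months and Y-linked transcripts at 12 months, so in WT mice age and sex cannot be told apart. That limit holds for every difference between genotypes given here. On TPM as deposited the test called 77 genes higher and 4 lower, with a median of 0.29 over all genes.

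Of the 13, 4 belong to the lists above or to microglia. Gpnmb changed by 2.73 ± 0.40 more in APP than in WT mice (adjusted p = 0.0113), Ccl6 by 3.06 ± 0.49 (adjusted p = 0.0272) and Serpina3n by 2.06 (adjusted p = 0.019). In WT mice Gpnmb was at 1.55 and 1.45 TPM at 3 months and at 0.709, 1.00 and 1.60 TPM at 12 months, without the rise seen in APP mice. Cyth4, a regulator of ARF GTPases in leukocytes, changed by 1.11 ± 0.18 more (adjusted p = 0.0283). The sodium channel gene Scn1a fell in APP mice from 63.4, 63.5 and 47.4 TPM to 27.1, 34.5 and 29.9 TPM (change -0.90 ± 0.12, adjusted p = 0.00181) while WT mice were at 25.2 and 25.6 TPM at 3 months and 31.6 to 34.5 TPM at 12 months. Its difference between genotypes was -1.27 ± 0.18 (adjusted p = 0.011), and the WT level lay near that of the 12-month APP mice at both ages.

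For most genes that rose the genotype test did not pass. Cst7 changed by 4.82 more in APP mice (adjusted p = 0.0628), Gfap by 2.27 (adjusted p = 0.0996), Tyrobp by 1.98 (adjusted p = 0.159) and C4b by 1.91 (adjusted p = 0.159). C4b was also higher at 12 months in WT mice, at 21.1 ± 1.43 TPM (SD, n = 3) against 7.14 and 6.48 TPM at 3 months, though not called there (1.5, adjusted p = 0.227). Gfap in WT mice lay at 121 and 108 TPM at 3 months and 129 ± 5.58 TPM (SD, n = 3) at 12 months.

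The short-RNA libraries of the same 2 groups hold counts along B2, a short interspersed element transcribed by RNA polymerase III, at positions 2 to 120. The share of these counts past position 20 was 82.5%, 85.9% and 84.8% in the 3-month mice and 81.1%, 89.2% and 83.3% in the 12-month mice. The ages overlapped fully, with 84.4% ± 1.75 and 84.6% ± 4.16 (SD, n = 3 each) and a two-sided exact permutation p of 1.0, where 3 against 3 cannot go below 0.1. The libraries held 924 to 2355 such counts at 3 months and 432 to 1061 at 12 months, and the 95% Wilson intervals, which cover counting error only, ran for example from 80.6% to 84.2% in 3-month replicate 1 and from 85.9% to 91.8% in 12-month replicate 2.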

How the data were processed

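Each mouse was measured by long-RNA sequencing after ribosomal depletion and by short-RNA sequencing. The deposited long-RNA tables give per gene a coverage signal, FPKM and TPM, per the file headers, and the deposited short-RNA tables give counts of RNA fragments by B2 position. The submitters' processing notes name FastQC, cutadapt 1.18, BWA 0.7.17, HISAT2 2.1.0, bedtools 2.26.0, StringTie 1.3.4d and mm10 (GRCm38). For the role and settings of each tool, and for the use of strand, no source used here gives an account. Of 53975 gene identifiers, 53934 are in GENCODE M21, 98.21% of them at the same coordinates. The FPKM values and the coverage signal deposited by the authors served only to gauge depth: the ratio of coverage to FPKM, a relative measure, ran from 1.42 to 3.04 over the 17 mouse long-RNA libraries. Protein-coding genes took 34.4% to 37.6% of TPM in the 6 libraries compared. TPM is not a count, so a count model was not used and a level near 0 has no exact floor.

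TPM was summed per gene identifier (13 were listed more than once), divided by median-of-ratios factors (0.967 to 1.058 at 3 months, 0.993 to 1.039 at 12 months) and taken to log2(TPM + 1). Genes with a mean of at least 1 TPM over the 17 libraries entered limma 3.58.1 (R 4.3.3; trend and robust), with 1 mean for each of 6 genotype and age groups and Benjamini-Hochberg adjustment over all genes. All 17 libraries share 1 estimate of the spread. The share of B2 counts was compared by an exact permutation test (scipy 1.17.1, Python 3.11.15). Promoters were searched for 10 short motifs on both strands.

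Genes named are the 14 largest rises and falls among called genes whose groups do not overlap and whose higher group has a mean of at least 5 TPM, the first member and up to 4 members with the smallest adjusted p of each list, App, Hsf1, Ezh2 and up to 6 genes of the genotype test. Further list members were named after their values were seen. Some genes that the rule or the lists hold are not reported here. The members and lists were chosen with earlier results of these data known. Alternatives left out each library, changed the scaling, filter, pseudocount or set of libraries, or added weights or a replicate block.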

Additional observations from a re-analysis of the deposited data

Results flagged for a closer look

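The direct limma test found 13 genes that changed differently between 3 and 12 months in APP and in WT mice, given here as the log2 change in APP mice minus that in WT mice. For Xist it was 6.61, for Eif2s3y -4.67, for Ddx3y -4.55, for Uty -4.08 and for Kdm5d -3.64. In APP mice Xist was at 70.6 to 88.1 TPM at 3 months and 103 to 117 TPM at 12 months, a called change of 0.47 (limma, adjusted p = 0.0241), and the 4 Y-linked genes were at or below 0.0797 TPM. These differences therefore lie mostly in the WT libraries, whose 3-month and 12-month mice differ in Xist and Y-linked transcripts.

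Of the other genes, Nek7, a kinase of the inflammasome, gave -1.35: it was at 19.2, 16.7 and 15.1 TPM at 3 months and 14.8, 18 and 16.8 TPM at 12 months in APP mice, and went from 5.34 and 5.04 TPM to 13.8, 14.8 and 14.4 TPM in WT mice. The change with age was called in WT mice (1.31, adjusted p = 0.000181) and not in APP mice (-0.04, adjusted p = 0.924). Islr2, a membrane protein of neurons, gave 1.68 and Shisa6, an AMPA receptor partner, gave 1.28. Both rose in APP mice (0.99 and 0.97) and were lower at 12 months in WT mice without being called there (-0.69 and -0.31). Scn1a gave -1.27, Gpnmb 2.73, Serpina3n 2.06, Ccl6 3.06 and Cyth4 1.11, and these 5 were called in APP mice. Sex and age cannot be told apart in the WT groups, and this touches each of these differences.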

How the results depend on the processing

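With 585 genes called at 12 against 3 months, the count was 286 on TPM as deposited, 387 with a mean of at least 5 TPM, 144 in a fit on only the 6 libraries, 225 on only the 9 APP libraries and 115 without both 3-month libraries high in thalamic markers, a choice made after seeing the data. Leaving out 1 library gave 160 to 756. Of 133 named called genes, none with a value reversed in the settings run for them. Values were had for 90 with a mean of at least 5 TPM and for 129 to 133 otherwise. On TPM as deposited 107 were still called, 66 in the fit on the 6 libraries, 29 in that fit with a replicate block and 39 without both 3-month libraries. The 6-library fit has fewer degrees of freedom, and the causes of the other shifts were not tested. Calls at 6 against 3 months went from 421 to 1270 on TPM as deposited, 183 with array weights, 169 with no filter and 40 to 580 with 1 library left out, the fewest without 6-month replicate 2. Calls at 12 against 6 months went from 96 to 26 on TPM as deposited, 250 with array weights, 42 with a pseudocount of 0.1, 62 with quantile normalization and 1 to 125 with 1 library left out, the fewest without 12-month replicate 1. The genotype test went from 13 to 81 on TPM as deposited and 22 with array weights, with no filter or with a pseudocount of 5, and to 9 to 70 with 1 library left out, the most without 3-month replicate 3. The B2 difference of 0.147 percentage points went to -5.43 with the limit at position 40, to -0.217 without the position with the highest count and to -2.17 to 1.85 with 1 library left out. Some uncalled changes near 0 changed sign: with 1 library left out Ddx3y ran from -0.0029 to 0.0538, Nek7 from -0.117 to 0.0526 and Hsf1 from -0.167 to 0.0844, negative for Ddx3y without 12-month replicate 3 (-0.0016) or 3-month replicate 1, positive for Nek7 without 12-month replicate 1 (0.0384) or 3-month replicate 1, and positive for Hsf1 without 3-month replicate 2. Nek7 was also at 0.0128 with array weights and 0.123 without both 3-month libraries.

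Deviations of same-numbered APP libraries at 3 and 12 months correlated at -0.035, 0.074 and 0.044 across genes, and those of differently numbered ones at -0.087 to 0.036. With 3 libraries at each age, such small values cannot decide whether replicate numbers link the libraries. With a replicate block the calls were 445 at 12 against 3 months, 41 when the block was added to the fit on the 6 libraries, 332 at 6 against 3, 50 at 12 against 6 and 11 in the genotype test. TPM keeps no read counts, so the depth behind single low genes is unknown.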
